A study of Mus musculus with 2 samples.

Results

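The genes described here are the fibroblast growth factor (FGF) ligands, their receptors and the genes that FGF signalling is known to switch on or to be restrained by. The set held 30 genes, chosen by name from the 22652 genes of the count tables: 17 ligands, being all symbols made of Fgf and a number, 5 receptors (*Fgfr1*, *Fgfr2*, *Fgfr3*, *Fgfr4* and the decoy-like *Fgfrl1*) and 8 feedback genes (*Spry1*, *Spry2*, *Spry4*, *Spred1*, *Spred2*, *Dusp6*, *Etv4* and *Etv5*). The choice went by gene name and not by a cut-off on measured values, but it was made with earlier results of these data known. After the filter on cells, 21 of the 30 had at least 50 unique molecular identifiers (UMIs, each standing for 1 captured transcript) over both libraries: 8 of 17 ligands, 5 of 5 receptors and 8 of 8 feedback genes.

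The study followed the niche of blood stem and progenitor cells in the fetal femur. Femoral bone marrow of C57BL/6 embryos at E18.5, shortly before birth, was depleted of cells carrying markers of mature blood lineages and profiled as single cells on the BD Rhapsody platform. There was 1 library from wild-type (WT) embryos and 1 from *Bmx-CreER Wls* embryos, in which a tamoxifen-inducible Cre driven from *Bmx*, a gene of arterial endothelial cells, acts on *Wls*, the gene of a protein needed to secrete Wnt ligands. The labels name neither the number of embryos behind a library nor a litter or tamoxifen treatment for the WT one, so the genotype cannot be told apart from any other difference between these 2 libraries.

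FGF ligands are secreted proteins that bind receptor tyrosine kinases together with heparan sulfate and switch on the RAS and MAP kinase cascade. The Sprouty (Spry) and Spred proteins and the phosphatase *Dusp6* dampen that cascade and are often induced by it, and the ETS-family transcription factors *Etv4* and *Etv5* are common read-outs of it. In the skeleton, *Fgfr3* restrains the proliferation of growth plate chondrocytes, *Fgf18* signals to cartilage and bone, and *Fgfr1* and *Fgfr2* act in osteoblast lineage cells. The ligands *Fgf11*, *Fgf12*, *Fgf13* and *Fgf14* differ from the others in that they stay inside the cell and bind voltage-gated sodium channels.

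The sequences upstream of 4 members are shown because the results turn on them. *Dusp6* and *Etv5* were both higher in the stromal cells of the *Bmx-CreER Wls* library. *Fgfr3* and *Fgfrl1* were both highest in cartilage, though in different classes of it. The sequences are the 250 bases before a transcript start listed by RefSeq (GRCm38.p6). Capitals mark GGGCGG (a GC box), CCAAT and CCGGAA (an ETS core), each on either strand.
*Dusp6*, chr10:99262981-99263230, + strand: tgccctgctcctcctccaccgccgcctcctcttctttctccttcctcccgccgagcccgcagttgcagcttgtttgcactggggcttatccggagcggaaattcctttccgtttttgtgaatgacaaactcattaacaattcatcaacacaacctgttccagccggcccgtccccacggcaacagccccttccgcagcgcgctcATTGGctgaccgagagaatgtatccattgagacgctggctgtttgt
*Etv5*, chr16:22439571-22439820, - strand: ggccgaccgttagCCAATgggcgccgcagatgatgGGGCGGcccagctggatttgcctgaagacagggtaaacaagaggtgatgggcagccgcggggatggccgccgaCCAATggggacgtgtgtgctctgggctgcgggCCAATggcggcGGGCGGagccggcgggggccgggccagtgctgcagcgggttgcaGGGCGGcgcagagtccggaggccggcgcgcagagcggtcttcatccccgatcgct
*Fgfr3*, chr5:33721474-33721723, + strand: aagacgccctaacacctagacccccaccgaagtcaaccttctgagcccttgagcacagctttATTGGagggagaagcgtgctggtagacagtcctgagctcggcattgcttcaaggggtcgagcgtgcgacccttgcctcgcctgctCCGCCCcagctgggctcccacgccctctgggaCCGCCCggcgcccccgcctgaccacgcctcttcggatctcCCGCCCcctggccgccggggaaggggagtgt
*Fgfrl1*, chr5:108693979-108694228, + strand: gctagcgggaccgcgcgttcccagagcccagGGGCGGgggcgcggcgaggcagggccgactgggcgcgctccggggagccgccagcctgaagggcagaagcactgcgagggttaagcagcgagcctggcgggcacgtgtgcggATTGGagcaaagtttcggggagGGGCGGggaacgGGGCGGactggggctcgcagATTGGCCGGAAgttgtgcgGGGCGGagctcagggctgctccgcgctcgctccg
The table of upstream windows matched 22 of the 30 members, with 30 windows. GGGCGG stood in 19 of these 30 windows against 32.7% of all 32851 windows, and CCAAT in 10 against 33.8%. CCGGAA stood in 4 windows of 4 members, against 12.0% of all windows, and of the printed sequences only that of *Fgfrl1* holds it. These matches describe letters in a window and were not tested as binding sites.

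Cells of both libraries were clustered together without the 30 genes, which gave 15 classes. Of these, 13 were named from marker lists and fell into cartilage (superficial, cycling, growth plate, hypertrophic and other chondrocyte-like cells), bone (osteoblast-like), stromal (fibroblastic and cycling stroma-like), mural, endothelial and blood compartments (progenitor-, monocyte-macrophage- and osteoclast-like). The class of other chondrocyte-like cells, led by *Matn4* and *Wif1*, was not given a zone, because the 5 reserve chondrocyte markers that matched it best summed to 4482 CPM in WT and 4665 CPM in *Bmx-CreER Wls* there (CPM as defined below), against 17472 and 17290 CPM in the growth plate class. The remaining 2 classes were left unnamed and are called by their leading genes *Hbegf* and *Bpifb1*. The filter kept 5736 WT cells with a median of 3128 UMIs and 6620 *Bmx-CreER Wls* cells with a median of 3067, and 49 barcodes occurred in both libraries. Cartilage made up 43.8% of the WT cells and 61.4% of the *Bmx-CreER Wls* cells, stromal cells 21.2% and 13.5%, and blood cells 12.4% and 6.96%, so that levels are given within classes. In arterial endothelial-like cells of a finer clustering, *Wls* itself had 12 UMIs over 83 cells in WT and 2 over 71 cells in *Bmx-CreER Wls*, but whether the counted 3′ end lies in the deleted part is not given in the sources used here. Of the 139 WT cells that the study lists as neutrophil progenitors, 129 fell into the osteoclast-like class.

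Levels below are in CPM (counts-per-million), the UMIs of a gene scaled by all UMIs of the class or compartment in that library. With 1 library per condition there is no replicate and no test. Intervals in parentheses after a level, a share or a ratio cover 95% counting error only and were exact Poisson, binomial and conditional binomial intervals. A ratio is that of *Bmx-CreER Wls* to WT, and a gene was called higher or lower at a ratio of at least 1.5 or at most 0.667 with at least 50 UMIs over both libraries. Because transcripts were tagged at one end, a CPM compares the same gene between classes, and levels of different genes are not ranked against each other, and a gene's share of receptor UMIs serves only to compare classes and libraries.

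**Figure D1:**
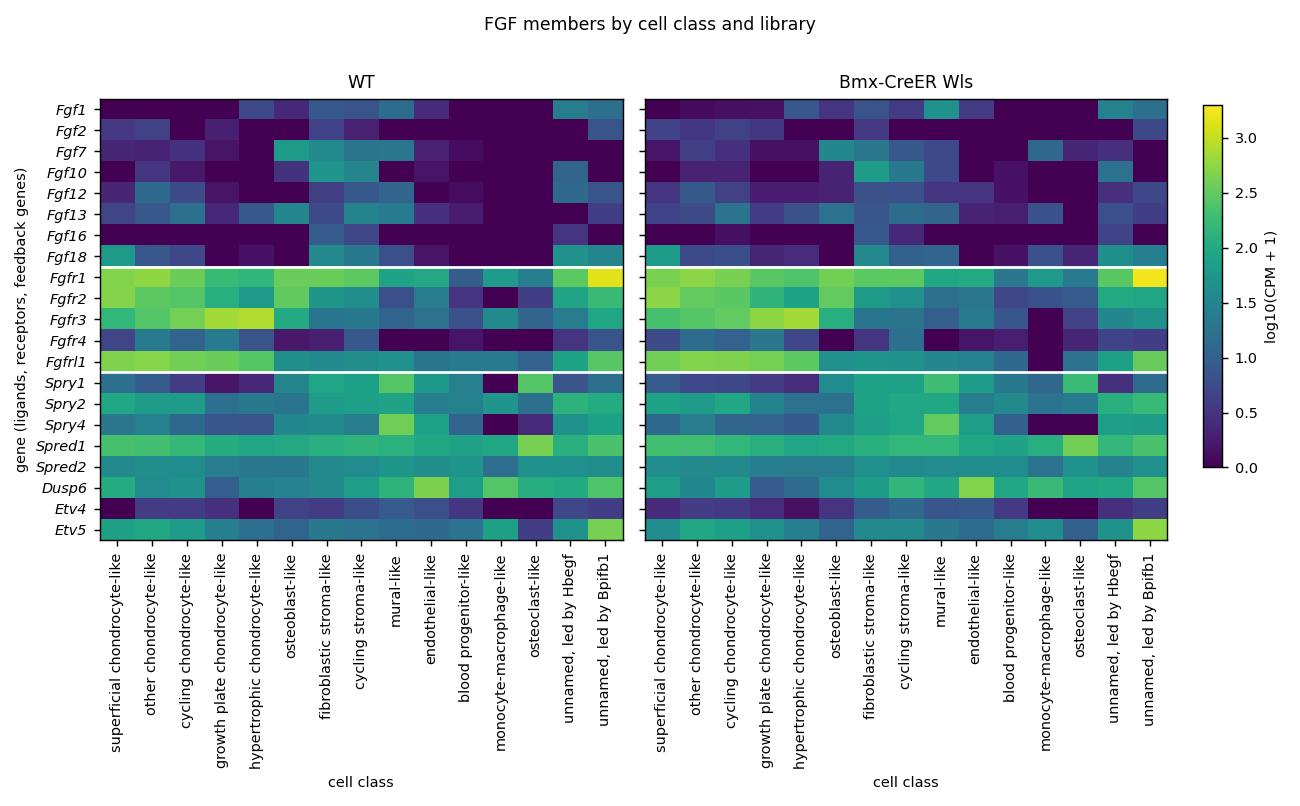
Heat map of log10(CPM + 1) for the 21 members with at least 50 UMIs (rows, in the order ligands, receptors, feedback genes, separated by white lines) in 15 cell classes (columns), with WT on the left and *Bmx-CreER Wls* on the right. Receptor levels were highest in the chondrocyte-like classes and the class led by *Bpifb1*, *Dusp6* in endothelial-like cells and *Spry4* in mural-like cells in both libraries.

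The ligands rested on few counts. All 17 together had 1093 UMIs in WT and 1053 in *Bmx-CreER Wls*, and there were 16461 and 24703 UMIs of the 5 receptors and 9423 and 11440 of the 8 feedback genes, counts that set the precision and do not rank the genes. The stromal compartment held 56.1% of the ligand UMIs in WT and 39.2% in *Bmx-CreER Wls*, and cartilage 19.3% and 38.5%. The compartments' own shares of all UMIs moved as well, from 18.3% to 12.7% for stromal cells and from 37.6% to 54.3% for cartilage. Endothelial cells held 1.1% of the ligand UMIs in WT and 1.14% in *Bmx-CreER Wls*, so that few ligand transcripts came from the endothelium in either library. Mural cells held 2.65% and 3.51%, at a summed level of 78.3 and 81.8 CPM, against 5.94 and 6.57 CPM in endothelial cells.

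*Fgf10*, a ligand best known from limb and lung outgrowth, marked the fibroblastic stroma. Its level there was 51.9 CPM (44.2 to 60.5) in WT and 64.2 CPM (54.4 to 75.3) in *Bmx-CreER Wls*, and the stromal compartment held 93.2% and 89.3% of its UMIs. In osteoblast-like cells it was at 2.01 CPM from 3 UMIs and 1.05 CPM from 1 UMI. Among the WT cells with the study's own labels, *Fgf10* was at 52.7 CPM in the 940 eBMSC-1 cells, the fetal stroma rich in *Col3a1*, and at 10.8 CPM in eBMSC-2.

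*Fgf7*, a ligand of the epithelial form of *Fgfr2*, was present in osteoblast-like cells and fibroblastic stroma and lower in both in the *Bmx-CreER Wls* library. In osteoblast-like cells it was at 61.6 CPM (49.6 to 75.5) in WT and at 33.6 CPM (23.0 to 47.4) in *Bmx-CreER Wls*, a ratio of 0.545 (0.353 to 0.823). In the stromal compartment the levels were 32.6 and 16.5 CPM, a ratio of 0.504 (0.358 to 0.702). The direction was the same in cycling stroma, where 17 UMIs stood against 5. The share of fibroblastic stroma-like cells with a *Fgf7* UMI was 9.08% in WT and 4.37% in *Bmx-CreER Wls*, and 3.49% and 1.51% after each cell was thinned to 1000 UMIs. As a reference, 0.165% and 0.132% of growth plate chondrocyte-like cells had one.

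Within the bone lineage of the WT library, *Fgf7* followed the study's split of the osteolineage cells. In OLCs-1, which carried *Cxcl12* at 3638 CPM, there were 86 UMIs of *Fgf7*, a level of 118 CPM. In OLCs-2, which carried *Bglap* at 46.1 CPM, there were 2 UMIs. Labels of this kind were not available for the other library. The list of 7 markers of *Cxcl12*-rich osteolineage stroma summed to 2842 CPM in WT and 1948 CPM in *Bmx-CreER Wls* in the osteoblast-like class, with 1 of the 7 higher in the latter, and its part in the lower *Fgf7* was not tested. With 30 principal components, a *Sparcl1*-high stroma-like class appeared in which *Fgf7* was at 106 CPM in WT (22 UMIs) and 70.8 CPM in *Bmx-CreER Wls* (11 UMIs), and the fibroblastic stroma-like class of that clustering still had a ratio of 0.519 (0.353 to 0.750).

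*Fgf18*, a ligand with a known part in cartilage and bone growth, was highest in superficial chondrocyte-like cells. The levels were 59.4 CPM (43.5 to 79.2) in WT and 65.4 CPM (54.5 to 77.9) in *Bmx-CreER Wls*, with overlapping intervals. Fibroblastic stroma followed at 34.8 and 35.1 CPM and the class led by *Hbegf* at 46.6 and 43.3 CPM, whereas no UMI was seen in osteoblast-like cells of either library, which allows up to 2.01 and 3.15 CPM. Over the whole cartilage compartment *Fgf18* had a ratio of 1.59 (1.18 to 2.15), from 7.76 to 12.3 CPM. That call was lost with the cartilage classes weighted alike in both libraries, at a log2 ratio of *Fgf18* of 0.13, and with the mean over cells, at 0.34. With each library clustered on its own the log2 ratio was 2.08. Superficial chondrocyte-like cells made up 5.54% of WT cells and 10.5% of *Bmx-CreER Wls* cells.

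**Figure D2:**
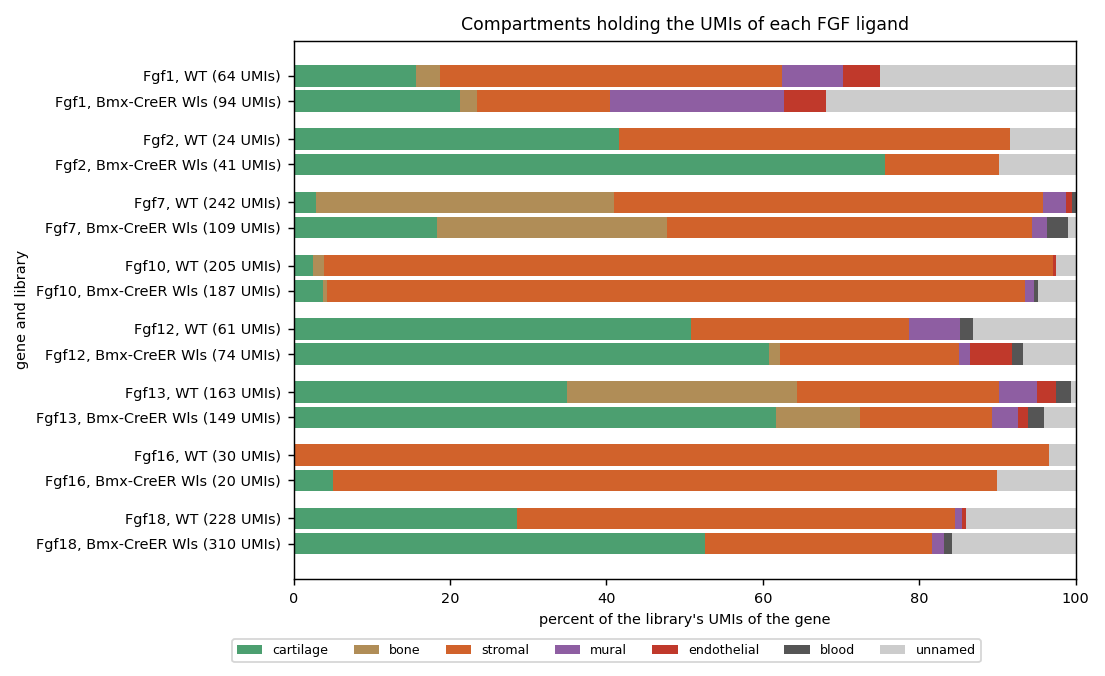
Stacked bars of the percent of each library's UMIs held by 7 compartments (colours), for the 8 ligands with at least 50 UMIs, 1 bar per gene and library, with the number of UMIs in parentheses. *Fgf10* and *Fgf16* sat in stromal cells, *Fgf7* in stromal and bone cells, and the cartilage share of *Fgf18* was 28.5% in WT and 52.6% in *Bmx-CreER Wls*.

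*Fgf13*, which codes for a channel-binding protein and not a secreted ligand, was spread over bone, stromal and dividing cartilage cells. In osteoblast-like cells it was at 32.1 CPM (23.7 to 42.6) in WT and 16.8 CPM (9.59 to 27.2) in *Bmx-CreER Wls*, a ratio of 0.522 (0.277 to 0.936). In cycling chondrocyte-like cells it was at 15.2 and 17.3 CPM with overlapping intervals. When the level was taken as a mean over cells, the osteoblast ratio was no longer past 1.5-fold, at a log2 ratio of -0.42. *Fgf12*, of the same subfamily, was at 12.6 CPM (7.91 to 19.1) in other chondrocyte-like cells of WT and at 7.48 CPM (4.97 to 10.8) in those of *Bmx-CreER Wls*, and cartilage held 50.8% and 60.8% of its UMIs.

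The remaining ligands were rare. *Fgf1* had 64 and 94 UMIs, with 23.3 and 27.0 CPM in the class led by *Hbegf* and, in mural-like cells, 13.5 CPM (5 UMIs) in WT and 46.4 CPM (21 UMIs) in *Bmx-CreER Wls*. Those mural counts sum to less than 50 and were outside the rule for ratios. *Fgf16* had 30 and 20 UMIs, of which 29 and 17 lay in stromal cells, and *Fgf2* had 24 and 41 UMIs, of which cartilage held 41.7% and 75.6%.

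Of the 9 ligands under 50 UMIs, several were seen in 1 compartment. All 10 UMIs of *Fgf3* were in blood progenitor-like cells, 5 in each library, and the 5 WT ones were in cells that the study lists as myeloid progenitors. *Fgf5* had 14 UMIs in WT, all of them in stromal cells, and 1 in *Bmx-CreER Wls*. The others were *Fgf9* with 11 and 13 UMIs, *Fgf11* with 13 and 20, *Fgf14* with 16 and 20, *Fgf17* with 3 and 3, *Fgf21* with 13 and 6, *Fgf15* with 0 and 1, and *Fgf20* with 1 and 0.

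The receptors divided the cartilage between them. Cartilage held 72.7% of all receptor UMIs in WT and 79.4% in *Bmx-CreER Wls*, and within it *Fgfr3* was highest at the hypertrophic end, where *Fgfr1* and *Fgfr2* were lowest. In WT, *Fgfr3* was at 154 CPM in superficial, 259 CPM in other, 404 CPM in cycling, 687 CPM in growth plate and 814 CPM (777 to 851) in hypertrophic chondrocyte-like cells. In *Bmx-CreER Wls* the same order ran through 215, 264, 323, 552 and 701 CPM (669 to 735). The intervals of neighbouring classes in this order did not overlap in either library.

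Outside cartilage, *Fgfr3* was at 104 CPM in osteoblast-like cells of WT and 115 CPM in those of *Bmx-CreER Wls*, and at 18.4 and 18.2 CPM in fibroblastic stroma. In blood progenitor-like cells it was at 5.67 and 6.63 CPM. *Col2a1*, a cartilage collagen that blood cells should lack, stood in those cells at 0.522% and 1.06% of its growth plate level, which gives the scale of free RNA. The share of growth plate chondrocyte-like cells with a *Fgfr3* UMI was 76.9% in WT and 67.9% in *Bmx-CreER Wls* at median depths of 3174.5 and 2970 UMIs, against 2.83% and 4.08% of blood progenitor-like cells at 7341.5 and 7653 UMIs. Thinned to 1000 UMIs the growth plate shares were 42.6% and 35.5% and the blood shares 0.613% and 1.04%.

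**Figure D3:**
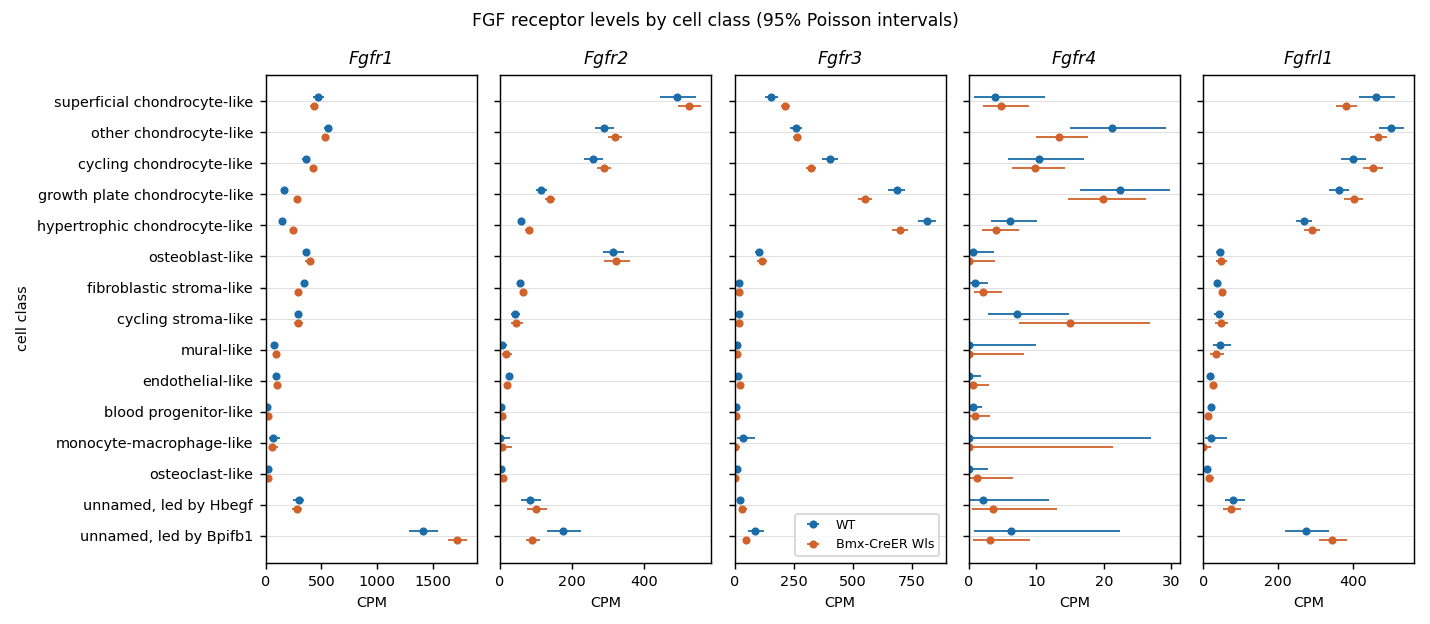
CPM of the 5 receptors (panels, each with its own linear axis from 0) in 15 cell classes (rows) for WT (blue) and *Bmx-CreER Wls* (orange), with exact 95% Poisson intervals as bars. *Fgfr3* reached 814 and 701 CPM in hypertrophic chondrocyte-like cells, where *Fgfr1* was at 148 and 245 CPM, and the class led by *Bpifb1* had the highest *Fgfr1*.

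*Fgfr1* had nearly the opposite order within cartilage. In WT it was at 561 CPM (526 to 597) in other, 473 CPM in superficial, 358 CPM in cycling, 168 CPM in growth plate and 148 CPM (133 to 164) in hypertrophic chondrocyte-like cells, the last pair with overlapping intervals. Osteoblast-like cells were at 361 and 394 CPM and fibroblastic stroma at 347 and 291 CPM in the WT and *Bmx-CreER Wls* libraries, while endothelial-like cells were at 96.6 and 102 CPM. In fibroblastic stroma-like cells it made up 82.4% of the UMIs of *Fgfr1* to *Fgfr4* in WT and 77.4% in *Bmx-CreER Wls*.

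The class led by *Bpifb1* stood apart for *Fgfr1*. It held 116 WT and 269 *Bmx-CreER Wls* cells, with *Fgfr1* at 1412 CPM (1285 to 1548) and 1720 CPM (1638 to 1805), and 91.4% and 97.0% of its cells had a *Fgfr1* UMI. *Etv5* was also highest there, at 419 CPM (351 to 496) and 546 CPM (501 to 595), against 94.1 and 92.5 CPM in other chondrocyte-like cells, the next class. *Fgfr3* was at 86.9 and 48.7 CPM and *Fgfr2* at 174 and 89.1 CPM in that class, the latter a ratio of 0.513 (0.362 to 0.732). The 5 superficial chondrocyte markers, of the class in which *Fgfr2* is highest, summed to 3165 and 1012 CPM there, with 0 of 5 higher in *Bmx-CreER Wls*, and the 9 osteoblast markers to 397 and 1211 CPM, and their part was not tested. The class carried *Col2a1* at 6010 and 9446 CPM, its sum of immediate early and heat shock genes was the highest of the 15 classes, at 13666 and 12680 CPM, and 39 of its WT cells are listed by the study as chondrocytes.

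*Fgfr2* was highest in superficial chondrocyte-like cells, at 492 CPM (444 to 544) in WT and 525 CPM (493 to 559) in *Bmx-CreER Wls*. Osteoblast-like cells followed at 315 and 323 CPM, and other chondrocyte-like cells at 290 and 319 CPM, with overlapping intervals between these classes in each library. Hypertrophic chondrocyte-like cells were at 58.3 and 80.1 CPM. Among the WT cells with listed labels, *Fgfr2* reached 477 CPM among the OLCs-1 cells but 183 CPM among the OLCs-2 cells, and with 30 components the *Sparcl1*-high stroma-like cells were at 459 and 463 CPM. Both *Fgfr2* and *Fgf7* were thus higher in OLCs-1 than in OLCs-2.

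*Fgfr4* and *Fgfrl1* were the other cartilage receptors. Cartilage held 87.9% and 85.2% of the UMIs of *Fgfr4*, which was at 22.4 CPM (16.5 to 29.8) and 19.9 CPM (14.7 to 26.3) in growth plate chondrocyte-like cells. *Fgfrl1*, whose receptor lacks the kinase domain, was at 502 CPM (469 to 537) and 467 CPM (445 to 489) in other chondrocyte-like cells and at 43.5 and 46.1 CPM in osteoblast-like cells. Within cartilage *Fgfrl1* was lowest in hypertrophic chondrocyte-like cells, at 268 and 290 CPM, the class in which *Fgfr3* was highest. Across the 15 classes the log2 levels of *Fgfrl1* and *Fgfr3* had a Pearson r of 0.85 in WT and 0.89 in *Bmx-CreER Wls*. The r of *Fgfrl1* was 0.79 and 0.83 with *Fgfr2* and 0.67 and 0.77 with *Fgfr1*, so the pairing with *Fgfr3* was not particular. These are descriptions over classes that share libraries and depth, and they do not give the order within cartilage.

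Between the libraries, the growth plate and hypertrophic chondrocyte-like classes had higher *Fgfr1* and lower *Fgfr3* levels in *Bmx-CreER Wls*. In growth plate chondrocyte-like cells *Fgfr1* went from 168 CPM (151 to 187) to 282 CPM (261 to 304), a ratio of 1.67 (1.47 to 1.91), and *Fgfr3* from 687 CPM (652 to 723) to 552 CPM (523 to 582), a ratio of 0.804 (0.746 to 0.866). In hypertrophic chondrocyte-like cells *Fgfr1* went from 148 to 245 CPM, a ratio of 1.66 (1.45 to 1.90), and *Fgfr3* had a ratio of 0.862 (0.807 to 0.920). The *Fgfr3* ratios were within 1.5-fold. Put together, *Fgfr1* made up 19.7% (17.9 to 21.6) of the *Fgfr1* and *Fgfr3* UMIs of growth plate chondrocyte-like cells in WT and 33.8% (31.8 to 35.9) in *Bmx-CreER Wls*, and 15.4% and 25.9% of those of hypertrophic chondrocyte-like cells.

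The other cartilage classes did not all share this. Cycling chondrocyte-like cells had the same directions, with ratios of 1.17 (1.06 to 1.31) for *Fgfr1* and 0.801 (0.720 to 0.891) for *Fgfr3*. In superficial chondrocyte-like cells *Fgfr3* had the opposite direction, with 1.40 (1.14 to 1.73), and the interval of *Fgfr1* included 1, with 0.908 (0.802 to 1.03). In other chondrocyte-like cells both intervals included 1, with 0.951 (0.880 to 1.03) and 1.02 (0.913 to 1.14). In the growth plate class the list of 9 fibroblastic stroma markers summed to 1551 and 2435 CPM, with 4 of 9 higher in *Bmx-CreER Wls*. The 7 tendon markers summed to 2198 and 3209 CPM there, with 2 of 7 higher and 1 at 0 in each library. The 5 growth plate markers summed to 14431 and 13071 CPM there, with 0 of 5 higher, while 6 of the 10 chondrocyte markers were higher. In hypertrophic chondrocyte-like cells the growth plate markers summed to 9793 and 8419 CPM, with 0 of 5 higher. The 5 hypertrophic markers summed to 36659.5 and 33951.7 CPM in those cells, with 2 of 5 higher. The part of these lists in the *Fgfr1* and *Fgfr3* ratios was not tested. Finer classes gave the same direction: with 30 components, a growth plate chondrocyte-like class led by *Epyc* had a *Fgfr1* ratio of 1.64 (1.43 to 1.90) and one led by *Fosb* a ratio of 2.62 (2.10 to 3.28). In the *Fosb*-led class *Fgfr3* was at 985 and 530 CPM, a ratio of 0.538 (0.478 to 0.605). Over the whole cartilage compartment *Fgfr1* had a ratio of 1.29 (1.23 to 1.36), *Fgfr2* of 1.35 (1.28 to 1.44) and *Fgfr3* of 0.756 (0.726 to 0.787), none past 1.5-fold.

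**Figure D4:**
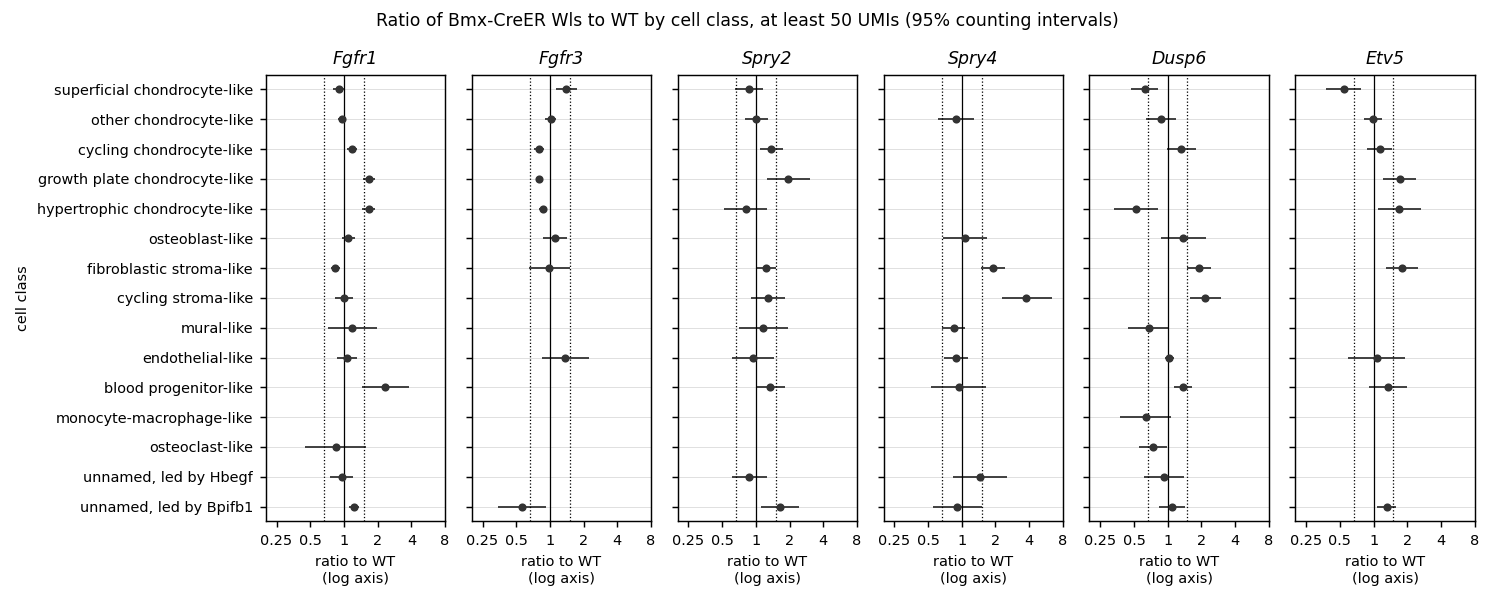
Ratio of *Bmx-CreER Wls* to WT (log axis) of 6 members in each cell class (rows) with at least 50 UMIs, with 95% counting intervals as bars, a solid line at 1 and dotted lines at 1.5-fold. *Fgfr1* was higher in growth plate and hypertrophic chondrocyte-like cells, *Spry4* and *Dusp6* in both stroma-like classes, and *Dusp6* and *Etv5* lay below 0.667 in superficial chondrocyte-like cells.

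The feedback genes did not share one place. *Dusp6*, the phosphatase of ERK kinases, was highest in endothelial-like cells, at 449 CPM (420 to 479) in WT and 466 CPM (435 to 498) in *Bmx-CreER Wls*, and 64.2% and 66.5% of those cells had a UMI. Growth plate chondrocyte-like cells, with abundant *Fgfr3*, had 8.58 CPM from 18 UMIs and 8.12 CPM from 20 UMIs. Within the endothelium, sinusoidal endothelial-like cells had 584 and 649 CPM and arterial ones 320 and 241 CPM in the finer clustering, and the study's labelled WT cells had the same order, with 723 CPM in sinusoidal and 285 CPM in arterial endothelial cells. As background, vessel cells also carry receptors for other growth factors that use the same cascade.

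*Spry4* and *Spry1*, which code for inhibitors of the cascade, were high in mural-like cells. *Spry4* was at 381 CPM (321 to 449) and 323 CPM (273 to 380) in mural-like cells, against 77.3 and 68.4 CPM in endothelial-like cells of WT and *Bmx-CreER Wls*. *Spry1* was at 257 and 186 CPM in mural-like cells and at 257 and 178 CPM in osteoclast-like cells, with overlapping intervals between these classes in each library. In growth plate chondrocyte-like cells *Spry1* had 1 UMI in WT and 7 in *Bmx-CreER Wls*. *Spred1* was highest in osteoclast-like cells, at 425 CPM (390 to 462) and 399 CPM (358 to 444). The WT cells that the study lists as neutrophil progenitors had 417 CPM of *Spred1* and 260 CPM of *Spry1*. Of them, 129 lie in the osteoclast-like class, so these values come largely from the same cells and are no separate support.

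*Spry2*, *Etv5*, *Spred2* and *Etv4* showed other patterns. *Spry2* was at 136 and 119 CPM in the class led by *Hbegf* and at 106 CPM (73.1 to 147) and 172 CPM (147 to 200) in the class led by *Bpifb1*. Across the 15 classes the log2 levels of *Etv5* and *Fgfr1* had a Pearson r of 0.65 in WT and 0.70 in *Bmx-CreER Wls*, against 0.34 and 0.24 for *Etv5* and *Fgfr3*, again as descriptions over classes. Of the 8 feedback genes *Etv5* had the highest r with *Fgfr1* in each library. *Spry2* followed with 0.53 and 0.54, whereas *Dusp6* had -0.13 and -0.15 and *Spry1* had -0.28 and -0.44. *Spred2* ranged from 14.6 to 54.0 CPM over the WT classes. *Etv4* had 58 and 84 UMIs and was below 13 CPM in each of the 15 classes, and with 30 components it was at 21.5 CPM (4 UMIs) and 33.5 CPM (15 UMIs) in tendon-like cells.

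Of the 15 members with at least 50 UMIs in the stromal compartment, 3 were higher in *Bmx-CreER Wls* (20%, against 6.97% of the 9668 genes with that many UMIs) and 1 was lower (6.67%, against 3.44%). All 3 higher ones were feedback genes. *Spry4* went from 33.6 to 74.6 CPM, a ratio of 2.22 (1.79 to 2.76), *Dusp6* from 42.9 to 85.9 CPM, a ratio of 2.0 (1.65 to 2.43), and *Etv5* from 19.6 to 36.5 CPM, a ratio of 1.86 (1.38 to 2.51). The lower one was *Fgf7*. *Spry2* had a ratio of 1.25 (1.05 to 1.49), and *Spry1*, *Spred1* and *Spred2* lay between 0.941 and 1.18, so the feedback genes did not all differ alike. *Fgfr1* had a ratio of 0.873 (0.802 to 0.951).

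The 3 stromal differences were seen in both stromal classes where counts allowed. Among fibroblastic stroma-like cells 3 of 14 members were higher (21.4%, against 7.11% of genes) and 1 lower (7.14%, against 3.68%), and among cycling stroma-like cells 2 of 9 were higher (22.2%, against 7.24%) and 0 lower (against 6.34%). In fibroblastic stroma-like cells *Spry4* was at 36.7 CPM (30.3 to 44.1) and 70.2 CPM (59.9 to 81.7), *Dusp6* at 34.8 CPM (28.6 to 42.0) and 66.4 CPM (56.4 to 77.6), and *Etv5* at 20.6 CPM (15.9 to 26.3) and 36.8 CPM (29.5 to 45.4). In cycling stroma-like cells *Spry4* had a ratio of 3.75 (2.30 to 6.33) and *Dusp6* of 2.16 (1.58 to 2.97). The shares of fibroblastic stroma-like cells with a UMI, thinned to 1000 UMIs, were 3.29% and 5.09% for *Spry4*, 2.98% and 4.95% for *Dusp6* and 1.54% and 3.99% for *Etv5*. The thinned intervals of *Spry4*, 2.26 to 4.61 in WT and 3.61 to 6.95 in *Bmx-CreER Wls*, overlapped.

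Other gene lists moved in the same cells. The immediate early and heat shock genes, which respond to handling and stress as well as to signals, summed to 3072 CPM in stromal cells of WT and 3963 CPM in those of *Bmx-CreER Wls*, with 4 of 10 genes past 1.5-fold higher (against 6.97% of all genes) and 0 lower (against 3.44%). The 7 tendon markers summed to 766 and 1625 CPM in fibroblastic stroma-like cells, with 7 of 7 higher and none at 0, and to 1048 and 1977 CPM in cycling stroma-like cells, where the 5 Schwann cell markers summed to 375 and 569 CPM and the 6 skeletal muscle markers to 586 and 291 CPM. The 10 chondrocyte markers summed to 3456 and 5857 CPM in fibroblastic stroma-like cells, with 10 of 10 higher. The 9 fibroblastic stroma markers themselves summed to 25827 and 20070 CPM in that class, with 2 of 9 higher, and to 18035 and 13747 CPM in cycling stroma-like cells, with 1 of 9 higher. When tendon-like cells formed a class of their own with 30 components, the fibroblastic stroma-like class had ratios of 2.20 (1.74 to 2.79) for *Spry4*, 1.92 (1.5 to 2.47) for *Dusp6* and 2.02 (1.46 to 2.82) for *Etv5*. The part of these lists in the differences was not tested.

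**Figure D5:**
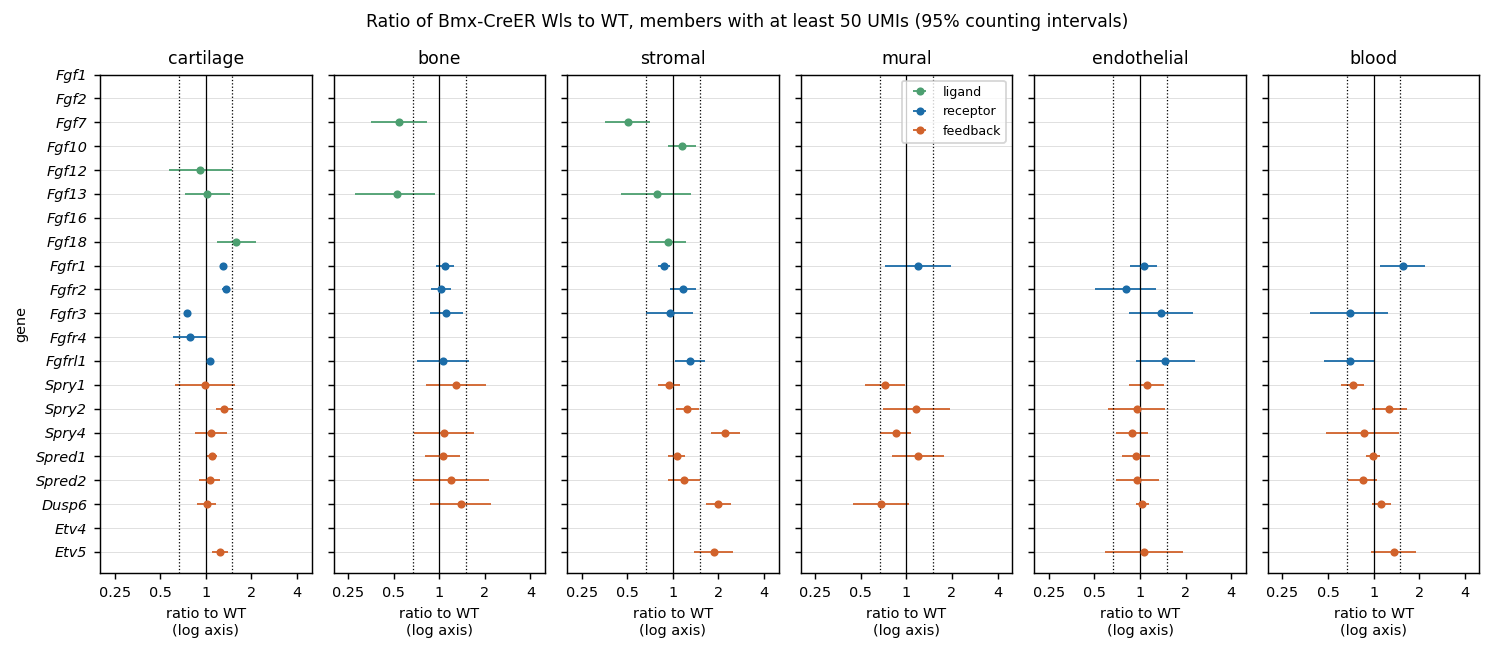
Ratio of *Bmx-CreER Wls* to WT (log axis) of each member with at least 50 UMIs in a compartment (panels), coloured by role, with 95% counting intervals as bars, a solid line at 1 and dotted lines at 1.5-fold. In stromal cells *Spry4*, *Dusp6* and *Etv5* lay to the right of 1.5 and *Fgf7* to the left of 0.667, and in endothelial and mural cells every point lay within 1.5-fold.

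In cartilage 1 of 15 members was higher (6.67%, against 4.84% of genes), namely *Fgf18*, and none of the 15 was lower (against 3.26%). More members passed 1.5-fold within single cartilage classes. In growth plate chondrocyte-like cells 3 of 9 members were higher (33.3%, against 5.2% of genes) and 0 lower (against 5.5%): *Fgfr1*, *Spry2* at 15.3 and 29.7 CPM with a ratio of 1.94 (1.27 to 3.04), and *Etv5* at 25.7 and 43.9 CPM with a ratio of 1.70 (1.22 to 2.41). In hypertrophic chondrocyte-like cells 2 of 9 were higher (22.2%, against 6.13%), *Fgfr1* and *Etv5*, and *Dusp6* was lower at 25.5 and 13.4 CPM (1 of 9, against 4.55%). In superficial chondrocyte-like cells 2 of 10 were lower (20%, against 8.58%) and 0 higher (against 5.86%): *Dusp6* at 111 CPM (88.8 to 137) and 69.1 CPM (57.8 to 81.9), and *Etv5* at 74.9 CPM (56.9 to 96.8) and 40.3 CPM (31.8 to 50.4). In other chondrocyte-like cells 2 of 12 were lower (16.7%, against 4.58%), *Fgf12* and *Fgfr4*, and 0 higher (against 4.78%). In cycling chondrocyte-like cells 0 of 10 members passed either bound (against 5.32% higher and 4.76% lower).

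Marker lists moved in the superficial class as well. Its 10 chondrocyte markers summed to 49814 CPM in WT and 68547 CPM in *Bmx-CreER Wls*, with 8 of 10 higher in the latter. Its 5 superficial markers summed to 8068 and 6920 CPM, with 1 of 5 higher. Its 7 tendon markers summed to 5100 and 8530 CPM, with 4 of 7 higher. The part of these in the lower *Dusp6* and *Etv5* was not tested.

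Bone, vessel and blood cells gave few differences. In osteoblast-like cells 0 of 11 members were higher (against 4.9% of genes) and 2 were lower (18.2%, against 4.96%), *Fgf7* and *Fgf13*. In endothelial-like cells 0 of 11 passed either bound (against 3.58% higher and 3.73% lower), and for *Dusp6* the ratio was 1.04 (0.943 to 1.14). In mural-like cells 0 of 6 passed (against 7.99% and 6.68%). *Dusp6* came nearest to a bound there, at 0.677 (0.441 to 1.03), with *Spry1* at 0.724 (0.533 to 0.981) and *Spry4* at 0.848 (0.668 to 1.08). In blood cells *Fgfr1* was higher (1 of 10 members, against 4.54%), at 14.0 and 21.9 CPM, and 0 of 10 were lower (against 2.85%).

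The blood classes and the unnamed classes held the remaining calls. In blood progenitor-like cells 1 of 9 members was higher (11.1%, against 4.71%), *Fgfr1*, and 1 lower (against 2.83%), *Fgfrl1* at 21.1 and 12.4 CPM. In osteoclast-like cells 0 of 5 passed either bound (against 5.31% and 4.92%), and in monocyte-macrophage-like cells the 1 member with enough UMIs, *Dusp6*, was lower at 263 and 167 CPM (against 11.6% higher and 8.74% lower), with a ratio of 0.637 (0.377 to 1.07) from 36 and 29 UMIs. That class did not hold alike cells in both libraries: its 6 neutrophil-monocyte markers summed to 109.5 CPM in WT, with 5 of 6 at 0, and to 15110 CPM in *Bmx-CreER Wls*, and its 10 chondrocyte markers to 6665 and 1079 CPM. In the class led by *Hbegf* 0 of 7 passed (against 5.71% and 5.47%). In the class led by *Bpifb1* 1 of 10 was higher, *Spry2* (against 9.18%), and 2 were lower, *Fgfr2* and *Fgfr3* (20%, against 8.18%).

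The blood difference in *Fgfr1* rests on few UMIs. The call was lost without the cells of the top 5% of doublet scores, at a log2 ratio of 0.54, and with the blood classes weighted alike, at 0.53. It was 72 UMIs in each library, and in blood progenitor-like cells 31 UMIs in WT and 44 in *Bmx-CreER Wls*, where the share of cells with a UMI was 4.45% and 8.84%. Thinned to 1000 UMIs the shares were 1.23% and 0.346%, so no order can be read from them. In the same cells *Col2a1* stood at 0.522% and 1.06% of its growth plate level, and the part of free cartilage RNA was not tested. In blood progenitor-like cells the 6 megakaryocyte markers summed to 137 and 308 CPM, with 6 of 6 higher, and the 6 basophil and mast markers to 777 and 1180 CPM, and their part was not tested either.

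The other genes of the pathway were taken from 3 lists, whose counts stand beside the shares of all genes given above, 6.97% higher and 3.44% lower in stromal cells, 4.84% and 3.26% in cartilage, 4.9% and 4.96% in bone and 3.58% and 3.73% in endothelial cells. Of 21 genes of heparan sulfate and FGF co-receptors, 17 had at least 50 UMIs in stromal cells, of which 1 was higher, *Sdc3*, a syndecan, with a ratio of 1.85 (1.40 to 2.46), and 1 was lower, *Sulf1*, which removes sulfate groups from heparan sulfate, at 139 and 56.8 CPM with a ratio of 0.409 (0.343 to 0.485). *Sulf1* was lower in osteoblast-like cells as well, with a ratio of 0.547 (0.348 to 0.837), the same 2 compartments as *Fgf7*. Its relative *Sulf2* was higher in cartilage, at 172 and 326 CPM with a ratio of 1.89 (1.78 to 2.01). The glypican *Gpc3* was at 1189 and 1369 CPM in cartilage and 1838 and 1402 CPM in stromal cells, and the perlecan gene *Hspg2* at 436 and 456 CPM in endothelial cells.

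Of 18 adaptors and kinases between receptor and ERK, 0 of 17 tested passed in stromal cells, 0 of 16 in endothelial cells and 1 of 18 in cartilage, the adaptor gene *Frs3* with a ratio of 1.58 (0.948 to 2.72) from 22 and 55 UMIs. Of 11 further attenuators and targets found in the tables, 2 of 7 tested were higher in stromal cells, *Etv1* with a ratio of 1.85 (1.10 to 3.15) and *Phlda1* with a ratio of 1.53 (1.33 to 1.75), and 0 lower. In cartilage 1 of 7 was lower, *Myc* with a ratio of 0.586 (0.517 to 0.665), and *Dusp5* was higher in osteoblast-like cells, with a ratio of 2.08 (1.55 to 2.80), and in endothelial cells, with a ratio of 1.70 (1.01 to 2.90).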

How the data were processed

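The authors deposited a table of UMI counts per gene and cell for each library, and these counts were used as they stand. Per the submitters' processing notes, reads were handled with bcl2fastq 2.19.1.403, UMI-tools 1.0.1, STAR 2.7.1a (mm10) and featureCounts 1.6.4. Depth was 22708005 UMIs over 5998 barcodes in WT and 24704991 over 6825 in *Bmx-CreER Wls*. Cells with over 200 and under 5000 genes and under 30% mitochondrial counts were kept, scaled to 10000 and clustered with scanpy 1.11.5 (11 components, 20 neighbours, Leiden resolution 0.5), leaving out the members and cell cycle genes. Naming thresholds, and the neutral name of the other chondrocyte-like class, were set after the data were seen. The automatic threshold of the doublet caller did not work (38 and 0 calls), so doublets were kept, and the 5% of cells with the highest scores were left out as an alternative. UMIs were summed per class and library, and scripts were tested on simulated data. Members and lists were chosen with earlier results of these data known. Named genes were the members themselves and pathway genes past 1.5-fold with at least 50 UMIs or the most counted of a list. Values of the study's own cell labels, which cover 3581 WT cells used here, were computed from the counts. Gene and promoter positions are GRCm38. Alternatives were other clusterings, cell filters, scalings and weightings.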

Additional observations from a re-analysis of the deposited data

Results flagged for a closer look

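The members whose library differences ran in opposite directions in different cell classes were *Dusp6* and *Etv5*. *Dusp6* had a ratio of *Bmx-CreER Wls* to WT of 2.16 in cycling stroma-like cells and of 0.524 in hypertrophic chondrocyte-like cells. *Etv5* had a ratio of 1.78 in fibroblastic stroma-like cells and of 0.538 in superficial chondrocyte-like cells. With 1 library per condition the difference between the classes was not tested. In hypertrophic chondrocyte-like cells the sum of immediate early and heat shock genes was 9532 CPM in WT and 6589 CPM in *Bmx-CreER Wls*, and in cycling stroma-like cells it was 3412 and 4222 CPM. Its part in the *Dusp6* ratios was not tested.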

How the results depend on the processing

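No paired analysis was possible because each condition had 1 library. Of 96 alternative values of the 8 called compartment ratios, 91 stayed past 1.5-fold, 5 did not, and none was reversed. *Fgf7*, *Spry4*, *Dusp6* and *Etv5* in stromal cells and *Fgf7* in bone stayed past it in 12 of 12 alternatives each. These totals include outcomes that were fixed in advance. Dropping the minimum count cannot change a ratio, and neither can composition held fixed in bone, which has 1 class. With each library clustered on its own, 2 members were higher in cartilage, 2 in bone, 6 in stromal and 2 in endothelial cells, and 1 was lower in mural cells. With no minimum count, 3, 2, 6, 3, 1 and 8 members were higher in cartilage, bone, stromal, mural, endothelial and blood cells, and 2, 4, 3, 3 and 1 lower in the first 5 of these. Without the top 5% of doublet scores, 1 was higher in bone, 1 higher and 1 lower in mural and 0 higher in blood cells. With the mean over cells, 0 were higher in cartilage and 2 in endothelial cells, and 1 was lower in bone, 1 in mural and 2 in blood cells. With composition held fixed, 0 were higher in cartilage and 0 in blood cells. The stricter cell filter gave 1 lower in mural and 1 in endothelial cells. With 30 components, chosen after seeing the data, 1 was lower in mural and 2 higher in endothelial cells. In that setting 7 members in WT and 5 in *Bmx-CreER Wls* were highest in stromal cells, against 2 and 3 in the main clustering. There, 6.62% and 7.76% of all 13723 genes with enough UMIs were highest in stromal cells. Without the top 5% of doublet scores, stromal cells held 61.7% and 45.0% of ligand UMIs, and cartilage 75.2% and 81.4% of receptor and 29.6% and 42.3% of feedback UMIs. The shares of all genes past 1.5-fold under these settings are not given here, so the counts show only how the calls on members moved. With no minimum count, members with as little as 1 UMI in each library entered. Why these counts moved was not tested. Rare ligands and small classes are limited by depth, and spread between animals is unknown.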
